A study of Mus musculus with 7 samples.

Results

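The transcripts examined were those of 10 circadian clock genes in follicular dendritic cells (FDCs), stroma of the B-cell follicle that displays antigen to B cells. The genes were Arntl, Clock, Per1, Per2, Per3, Cry1, Nr1d1, Nr1d2, Dbp and Ciart. They were taken by gene symbol, not by their values, as core clock and clock output genes, and all 10 were found among the 21176 genes of the table. Per the labels, the source was the popliteal lymph node of male mice, non-immunized and 8 to 12 weeks old, and FDCs were isolated by flow sorting. There were 4 wild-type (WT) samples and 3 samples of Ngfr knockout mice (Ngfr KO), which lack the low-affinity neurotrophin receptor. Each sample pooled nodes of several animals, per the series' design text. The deletion is not described further in the labels, and no time of day of tissue collection is given in them.

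The clock is a feedback loop of transcription that runs in nearly all mammalian cells. The proteins of Clock and Arntl (BMAL1) bind E-box sequences together and switch on the Per and Cry genes, whose proteins then inhibit that pair. The same pair also drives Nr1d1 and Nr1d2, which encode the REV-ERB repressors of Arntl, as well as Dbp, a transcription factor that binds D-boxes, and Ciart, a further repressor. Transcripts of Per, Nr1d1, Dbp and Ciart are therefore known to peak and fall with the time of day, and those of Arntl to run opposite to them. Per1 is also induced directly by glucocorticoids and by immediate early signals.

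The promoter sequences of 5 of these genes are shown: Per1 and Per3, which were called lower by edgeR, and Ciart, Nr1d1 and Dbp, which, like Per3, varied in step among the WT samples. Per2 varied with them but had no promoter entry. Each covers 250 bases before to 50 after a gene start, is written 5′ to 3′ on the gene's own strand and comes from RefSeq on GRCm38.p6, in which 9 of the 10 genes had an entry. Capitals mark matches, on either strand, to the E-box (CACGTG), the related E-prime box (CACGTT), the D-box (TTANNTAA), the core of the ROR and REV-ERB element (AGGTCA) and the CRE half-site (TGACG). No marked matches overlap each other. The regions are chr3:95882179-95882478 (minus strand) for Ciart, chr11:98775328-98775627 (minus strand) for Nr1d1, chr11:69098699-69098998 (plus strand) for the first of the Per1 starts, chr4:151044616-151044915 (minus strand) for Per3 and chr7:45704997-45705296 (plus strand) for Dbp.
Ciart: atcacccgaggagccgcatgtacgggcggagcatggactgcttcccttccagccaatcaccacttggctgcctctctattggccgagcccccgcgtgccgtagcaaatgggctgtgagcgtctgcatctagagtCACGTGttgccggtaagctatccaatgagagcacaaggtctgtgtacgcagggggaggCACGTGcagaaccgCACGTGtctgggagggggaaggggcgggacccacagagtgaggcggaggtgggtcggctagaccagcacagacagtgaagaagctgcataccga
Nr1d1: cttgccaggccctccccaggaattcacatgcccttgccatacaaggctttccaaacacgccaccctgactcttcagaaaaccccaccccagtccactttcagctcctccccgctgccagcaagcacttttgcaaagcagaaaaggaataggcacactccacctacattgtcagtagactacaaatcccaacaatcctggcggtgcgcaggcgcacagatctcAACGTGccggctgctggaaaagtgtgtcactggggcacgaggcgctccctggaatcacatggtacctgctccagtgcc
Per1: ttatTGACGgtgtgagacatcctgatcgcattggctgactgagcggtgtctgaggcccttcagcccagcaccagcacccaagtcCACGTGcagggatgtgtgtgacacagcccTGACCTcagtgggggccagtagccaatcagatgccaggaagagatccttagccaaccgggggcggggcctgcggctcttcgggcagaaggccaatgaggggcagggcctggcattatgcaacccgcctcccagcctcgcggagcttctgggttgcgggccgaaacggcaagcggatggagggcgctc
Per3: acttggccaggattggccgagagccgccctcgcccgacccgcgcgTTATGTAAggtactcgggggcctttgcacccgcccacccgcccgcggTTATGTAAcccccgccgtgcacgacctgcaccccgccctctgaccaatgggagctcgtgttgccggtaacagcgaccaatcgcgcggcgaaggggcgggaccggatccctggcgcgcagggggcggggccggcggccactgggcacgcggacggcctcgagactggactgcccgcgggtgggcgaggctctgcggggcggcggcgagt
Dbp: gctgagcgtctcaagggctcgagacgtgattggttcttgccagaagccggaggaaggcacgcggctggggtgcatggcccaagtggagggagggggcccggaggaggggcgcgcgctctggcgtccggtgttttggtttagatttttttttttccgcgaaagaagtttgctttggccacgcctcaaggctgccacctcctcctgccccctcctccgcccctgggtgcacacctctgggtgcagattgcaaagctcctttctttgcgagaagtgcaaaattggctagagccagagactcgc

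Counted from the start base as position 0, the Ciart promoter held E-boxes at -116, -58 and -44. At least 1 E-box was found in 7.15% of 32851 promoters of the same length, and at least 3 in 29 of them. Nr1d1 held an E-prime box at -28, which 4.68% of promoters share. The shown Per1 promoter held an E-box at -166, a ROR element core on its other strand at -137 and a CRE half-site at -246. These last motifs are common, at 16.3% and 20.8% of promoters. Per3 held D-boxes at -205 and -158, and at least 2 D-boxes were found in 160 promoters, or 0.487%. Cry1 held an E-box at -60 and an E-prime box at -79, whereas the Dbp promoter window shown held none of the searched letters, which says nothing about binding there. A match describes the sequence and shows no binding.

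Values were normalised values per gene: reads multiplied by a single factor per sample, so that a value of 1 stood for 230 to 295 reads. Libraries held 17244925 to 18873542 reads in WT and 20741770 to 21538400 in Ngfr KO, without overlap (p = 0.0286 by a two-sided exact permutation test over 35 splits, its minimum). Reads of the targeted gene Ngfr were present in all samples, at values of 0.377, 0.677, 1.29 and 1.14 in WT and 0.305, 0.353 and 0.184 in Ngfr KO. The edgeR log2 change of Ngfr was -1.55 (SE 0.49, adjusted p = 0.0574). Of 8326 genes tested by limma, 34.2% differed between genotypes at an adjusted p under 0.05, 18.3% higher and 15.8% lower in Ngfr KO. With edgeR on the recovered reads it was 15.2% of 16751 genes, 8.67% higher and 6.55% lower.

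Marker genes of FDCs and of endothelium moved with genotype. All 18 listed FDC markers were tested by limma and 15 rose, with a summed value of 1859 to 5198 for WT and 8074 to 10610 for Ngfr KO. Of 16 listed endothelial markers 13 were tested and all 13 fell, with sums of 155 to 205 for WT and 37.4 to 67.9 for Ngfr KO. edgeR tested all of both lists and called 14 of the 18 FDC markers higher and 13 of the 16 endothelial markers lower. Of the tested reticular stroma markers 3 of 8 rose (sums of 92.5 to 226 and 252 to 361), of the myeloid markers 2 of 5 (19.7 to 28.3 and 29.7 to 63.6) and of the B-cell markers 1 of 5 (15.3 to 23.0 and 14.5 to 34.9), beside 18.3% of all genes called higher by limma. edgeR called 0 of 10 B-cell markers, with 1 at an unadjusted p under 0.05. None of 5 tested T-cell markers passed in limma, none had an unadjusted p under 0.05, and edgeR called 0 of 10 (sums of 2.63 to 12.8 and 3.84 to 11.0). No listed marker was at 0 in every sample. The part of these markers in the clock gene values was not tested, and in sorted bulk samples fewer cells of a type and less RNA per cell cannot be told apart.

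All 10 clock genes were detected in every sample, with 28 to 1790 reads per gene and sample. Levels of different genes were compared only as normalised value per kb of annotated exon. On that scale Dbp had the highest mean in WT, at 1.15 ± 0.54 (SD, n = 4), followed by Nr1d2 at 0.899 ± 0.348, Nr1d1 at 0.407 ± 0.153, Clock at 0.344 ± 0.136 and Per3 at 0.317 ± 0.098. The other 5 had per-kb means of 0.106 to 0.129 in WT, in the order Cry1, Ciart, Arntl, Per2 and Per1, and their ranges over samples overlapped throughout. Dbp and Nr1d2 overlapped as well, and so did Nr1d1, Clock and Per3. In Ngfr KO the per-kb order began with Dbp (1.50 ± 0.42, n = 3) and Nr1d1 (0.698 ± 0.222), with Nr1d2 at 0.455 ± 0.174, while Per1 was again last at 0.0351 ± 0.0065. The per-kb values of Nr1d1 and Nr1d2 in Ngfr KO overlapped.

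**Figure D1:**
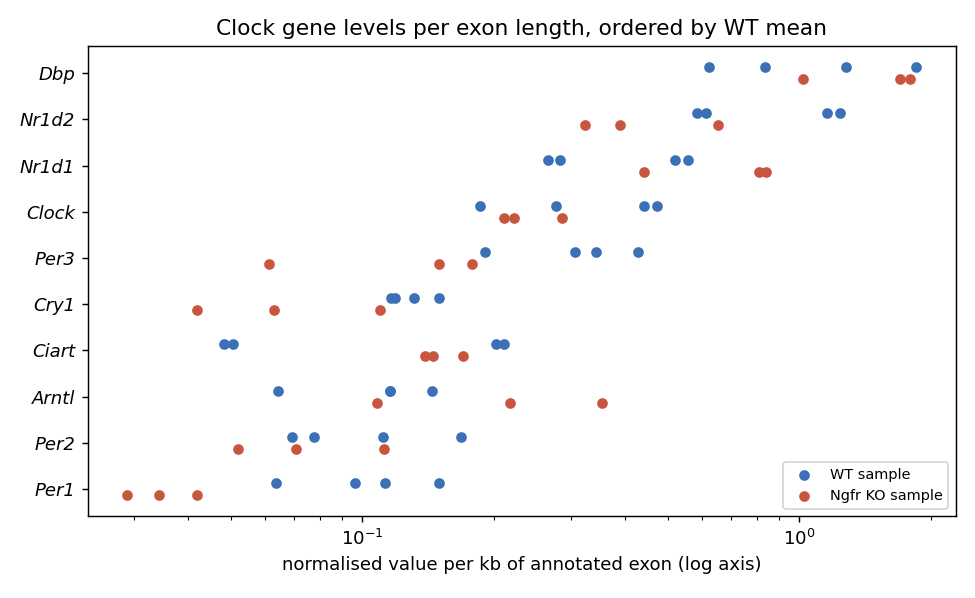
Normalised value per kb of annotated exon (log axis) for each of the 10 clock genes, with 1 point per sample (blue WT, red Ngfr KO), ordered by the WT mean. Dbp lies at the top in both genotypes, and the 3 red points of Per1 lie lowest, below all 4 of its blue points.

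Between genotypes, few of the clock genes differed. Per3 was lower in Ngfr KO by limma and edgeR, Nr1d2 by limma only, and Per1 by edgeR, the one of these tests it entered; none of the 10 genes was called higher. Of the 10 genes, 6 passed limma's filter on low values (3 or more samples at a value of 1 or above), and 2 of these 6 were called, both lower. Calls in either direction were thus near the background of 34.2% for all genes tested, of which 15.8% were lower, and with so few genes nothing is read from the list as a whole. edgeR tested all 10 and also called 2, both lower (background 15.2%, or 6.55% lower). Of the positive changes, 2 in each test had an unadjusted p under 0.05. The median log2 change was -0.0017 over the 6 genes by limma and -0.42 over the 10 by edgeR, against 0.02 and -0.02 over all genes tested. The groups did not overlap in 3 of the 10 clock genes (Per1, Per3 and Cry1, all lower). In all genes tested by limma the groups did not overlap in 40.9%, of which 22.6% of genes lay wholly higher and 18.3% wholly lower in Ngfr KO. In those tested by edgeR it was 30.5%, with 15.5% wholly lower, so 3 of 10 was near the background.

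**Figure D2:**
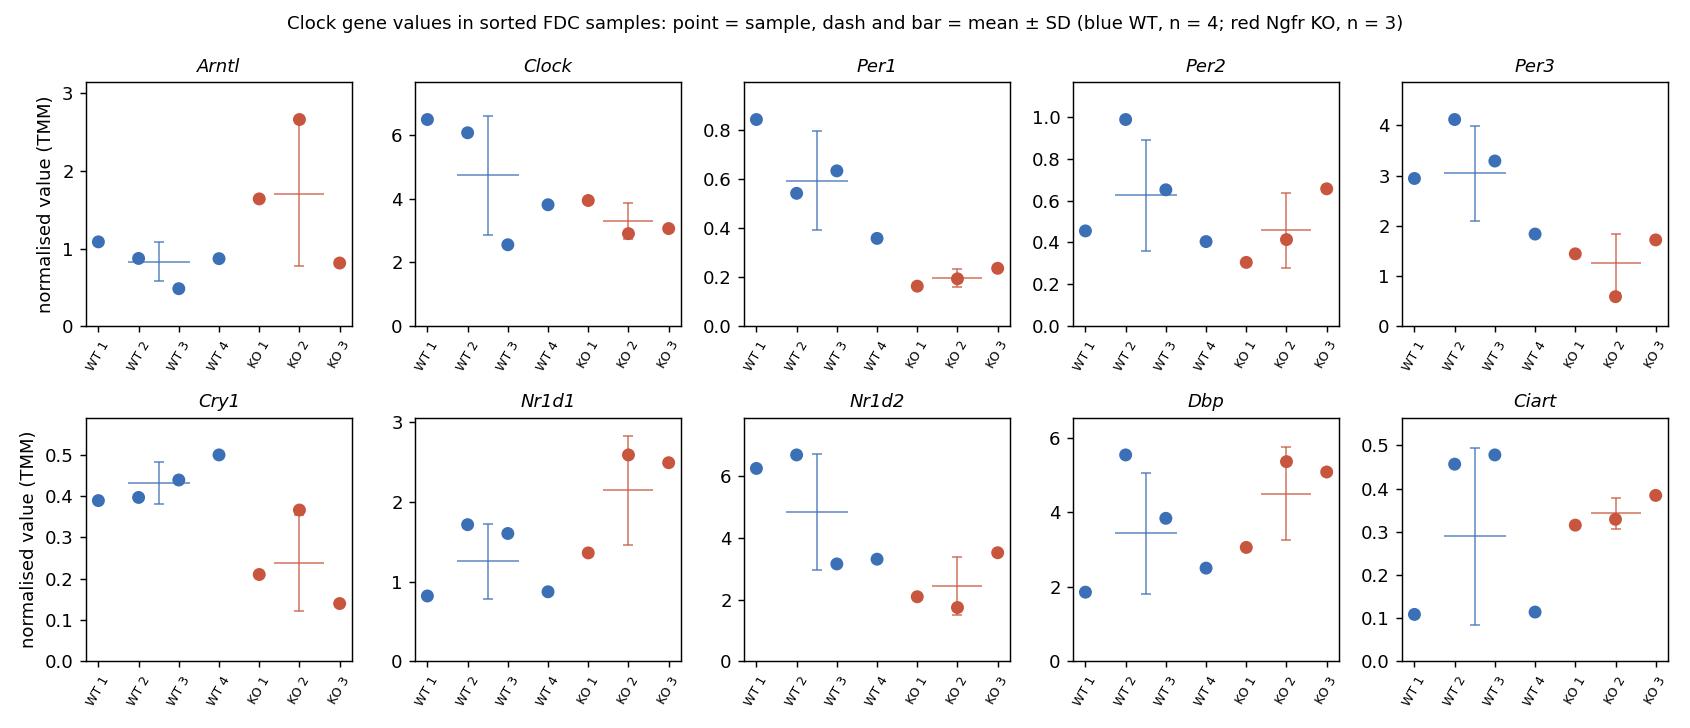
Normalised value (TMM) of each clock gene in every sample, with blue for WT (n = 4), red for Ngfr KO (n = 3), and a dash with a bar for mean ± SD; each panel starts at 0 and has its own scale. In Per1, Per3 and Cry1 every red point lies below every blue point, and in the other 7 genes the genotypes overlap.

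The positive arm of the loop was examined first. Arntl, whose protein BMAL1 is the partner of CLOCK, had values of 1.09, 0.872, 0.482 and 0.870 in WT replicates 1 to 4 and 1.64, 2.66 and 0.813 in Ngfr KO replicates 1 to 3. Ngfr KO replicates 1 and 2 were above every WT sample, and Ngfr KO replicate 3 lay within the WT range. The limma log2 change on the log2(value + 1) scale was 0.52 (SE 0.22, adjusted p = 0.0806), and Arntl passed the filter through WT replicate 1 and Ngfr KO replicates 1 and 2. Without Ngfr KO replicate 3 the log2 change was 0.78 and the limma adjusted p = 0.0152. With all samples, Arntl was called by DESeq2 on the reads, with a log2 change of 1.14 (adjusted p = 0.0466), and by limma with array weights (0.51, adjusted p = 0.00663). It was not called by edgeR on the same reads (1.14, adjusted p = 0.0898) and passed in 5 of 16 alternatives. When 1 sample was left out the limma adjusted p reached 0.165 where Arntl was tested, and edgeR called Arntl in 1 of 7 such fits. Without WT replicate 1, Ngfr KO replicate 1 or Ngfr KO replicate 2, Arntl fell below the filter and limma did not test it. Clock, the other gene of the pair, had values of 6.48, 6.06, 2.55 and 3.81 in WT and 3.94, 2.90 and 3.06 in Ngfr KO. WT replicates 1 and 2 were the high samples, and the genotypes overlapped. Its limma log2 change was -0.36 (SE 0.24, adjusted p = 0.263). Without WT replicate 3 it was -0.57 (limma adjusted p = 0.0480). With other single samples left out the limma adjusted p reached 0.535, and Clock passed in 2 of 19 alternatives.

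The Period genes encode the PER proteins that carry the negative feedback. Per1 (ENSMUSG00000020893, chromosome 11, 69095217 to 69109960, plus strand, GRCm38) had values of 0.844, 0.543, 0.635 and 0.359 in WT and 0.163, 0.193 and 0.236 in Ngfr KO. All 3 Ngfr KO samples were below all 4 WT samples, and the WT mean was 3.01 times the Ngfr KO mean. At 45 to 59 reads per Ngfr KO library and 94 to 217 per WT library, Per1 did not reach limma's filter. The edgeR log2 change was -1.52 (SE 0.44, adjusted p = 0.0421). The DESeq2 adjusted p was 0.00405. The edgeR call was lost in 6 of the 7 fits that left out a single library and was kept without WT replicate 4, with log2 changes from -1.70 to -1.33 and adjusted p from 0.0304 to 0.132.

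Per3 (ENSMUSG00000028957, chromosome 4, 151003652 to 151044665, minus strand, GRCm38) had values of 2.94, 4.12, 3.29 and 1.83 in WT and 1.44, 0.587 and 1.72 in Ngfr KO. Its groups did not overlap either, although WT replicate 4 was close to Ngfr KO replicate 3. The mean ± SD of Per3 was 3.05 ± 0.95 for WT (n = 4) and 1.25 ± 0.59 for Ngfr KO (n = 3), a limma log2 change of -0.85 (SE 0.23, adjusted p = 0.0141) and an edgeR log2 change of -1.24 (SE 0.37, adjusted p = 0.0472). Ngfr KO replicate 2, the lowest sample, carried weight in this: without it the limma log2 change was -0.62 and the adjusted p = 0.0743. The edgeR call of Per3 was lost in 6 of the 7 fits that left out a single library and was kept without WT replicate 4 (log2 changes from -1.49 to -0.91, adjusted p from 0.0366 to 0.131). Per2, the Period gene most widely used as a clock reporter, was not called. It had values of 0.455, 0.988, 0.652 and 0.404 in WT and 0.305, 0.414 and 0.657 in Ngfr KO. These overlapped, with an edgeR log2 change of -0.39 (SE 0.43, adjusted p = 0.584).

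Cry1 encodes the cryptochrome that joins PER proteins in repression. It had values of 0.389, 0.397, 0.439 and 0.500 in WT and 0.210, 0.366 and 0.140 in Ngfr KO. The WT samples were close together (highest over lowest 1.28) and the Ngfr KO samples spread 2.61 times, all below WT. Cry1 rested on 35 to 131 reads per library, and its edgeR log2 change of -0.76 (SE 0.48, adjusted p = 0.316) did not pass the test.

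The paralogous repressors Nr1d1 and Nr1d2 had changes of opposite sign. Nr1d2 (ENSMUSG00000021775, chromosome 14, 18204054 to 18239127, minus strand, GRCm38) had values of 6.26, 6.70, 3.16 and 3.32 in WT and 2.10, 1.75 and 3.53 in Ngfr KO. Ngfr KO replicates 1 and 2 were below every WT sample and Ngfr KO replicate 3 was within the WT range. The limma log2 change was -0.74 (SE 0.25, adjusted p = 0.0407), and edgeR did not call it (-0.93, adjusted p = 0.0837). The limma call was lost without WT replicate 1 (adjusted p = 0.102), WT replicate 2 (0.108), Ngfr KO replicate 1 (0.114) or Ngfr KO replicate 2 (0.158).

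Nr1d1 (ENSMUSG00000020889, chromosome 11, 98767932 to 98775333, minus strand, GRCm38) had values of 0.821, 1.71, 1.60 and 0.873 in WT and 1.36, 2.59 and 2.49 in Ngfr KO. Ngfr KO replicates 2 and 3 were above every WT sample and Ngfr KO replicate 1 was within the WT range. Its limma log2 change was 0.48 (SE 0.20, adjusted p = 0.0822). Without Ngfr KO replicate 1 it was 0.68 (limma adjusted p = 0.0388), the 1 of 19 alternatives in which Nr1d1 passed. With other single samples left out the limma adjusted p reached 0.264. Within each library, the value of Nr1d1 divided by that of Nr1d2 was 0.131, 0.256, 0.507 and 0.263 in WT and 0.648, 1.48 and 0.706 in Ngfr KO. This ratio was chosen after its values were seen and was higher in each Ngfr KO library than in any WT library. The ratios of Dbp, Per3 and Nr1d1 to Arntl were also computed, and each of them overlapped between genotypes. Nr1d1 shares 263 exon bases (8.55% of its exon length) with Thra, the thyroid hormone receptor gene on the opposite strand, and the sources used here do not state that counting used strand. Thra had values of 2.14, 1.87, 0.404 and 1.55 in WT and 0.508, 0.957 and 0.452 in Ngfr KO, a limma log2 change of -0.55 (adjusted p = 0.0972), opposite in sign to that of Nr1d1.

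The output genes Dbp and Ciart were not called. Dbp had values of 1.86, 5.54, 3.84 and 2.51 in WT and 3.06, 5.36 and 5.09 in Ngfr KO. The spread within WT, 2.98 times from lowest to highest, was wider than the difference of the means, and the limma log2 change was 0.35 (SE 0.26, adjusted p = 0.312). Its sign turned with array weights, to -0.23 (limma adjusted p = 0.419). Dbp shares 539 exon bases (18.0%) with Sphk2 on the opposite strand, whose value was 0.621 to 0.870 for WT and 0.254 to 0.353 for Ngfr KO. Ciart had values of 0.109, 0.457, 0.478 and 0.114 in WT and 0.316, 0.329 and 0.384 in Ngfr KO. The Ngfr KO samples lay close together, between the low and the high WT samples, and the edgeR log2 change was 0.31 (SE 0.62, adjusted p = 0.778). Ciart rested on 28 to 122 reads per library.

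Several clock genes differed in step among the WT samples. In Dbp, Nr1d1, Ciart, Per2 and Per3, WT replicates 1 and 4 both lay below WT replicates 2 and 3. Ciart showed it most, with 0.109 and 0.114 against 0.457 and 0.478. The highest WT value was 4.39 times the lowest for Ciart, 2.98 for Dbp, 2.44 for Per2, 2.24 for Per3 and 2.09 for Nr1d1. In the clock genes without that order it was 2.54 for Clock, 2.36 for Per1, 2.25 for Arntl, 2.12 for Nr1d2 and 1.28 for Cry1. The median of this ratio was 1.61 over all genes tested by limma and 2.08 over those tested by edgeR. The same order was found in 5 of the 10 clock genes and in 15.5% of all genes tested by limma, or 12.2% of all genes in the table. It was noticed after the values were seen and is given without a test.

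Of the 32 other clock genes 5 had that order (15.6%), a share at the level of all genes tested by limma: Tef, Hlf, Csnk2b, Rbm3 and Wee1. Tef and Hlf are D-box binding factors, and Hlf was at 0.844, 1.85, 1.44 and 0.881 in WT and 0.522, 0.573 and 1.35 in Ngfr KO. Arntl, Clock, Per1, Cry1 and Nr1d2 did not follow it. Arntl was lowest in WT replicate 3, and the within-library ratio of Dbp to Arntl was 1.71, 6.36, 7.96 and 2.88 in WT and 1.87, 2.01 and 6.26 in Ngfr KO. Ngfr KO replicate 3 thus had a high ratio and the other Ngfr KO replicates low ones, and the genotypes overlapped. In the same WT samples the endothelial marker sum was 205, 162, 187 and 155 and the FDC marker sum 1859, 4025, 4256 and 5198. Neither had the low pair at replicates 1 and 4. The myeloid sum had the reverse order, at 25.9, 24.1, 19.7 and 28.3, with replicates 1 and 4 highest. The B-cell sum was 15.3, 23.0, 16.3 and 19.3 and the T-cell sum 11.4, 12.8, 2.63 and 9.72. The reticular stroma sum was 92.5, 93.5, 103 and 226. The part of cell content in the order was not tested. The sum of the immediate early genes was 596, 529.8, 1138 and 652.

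**Figure D3:**
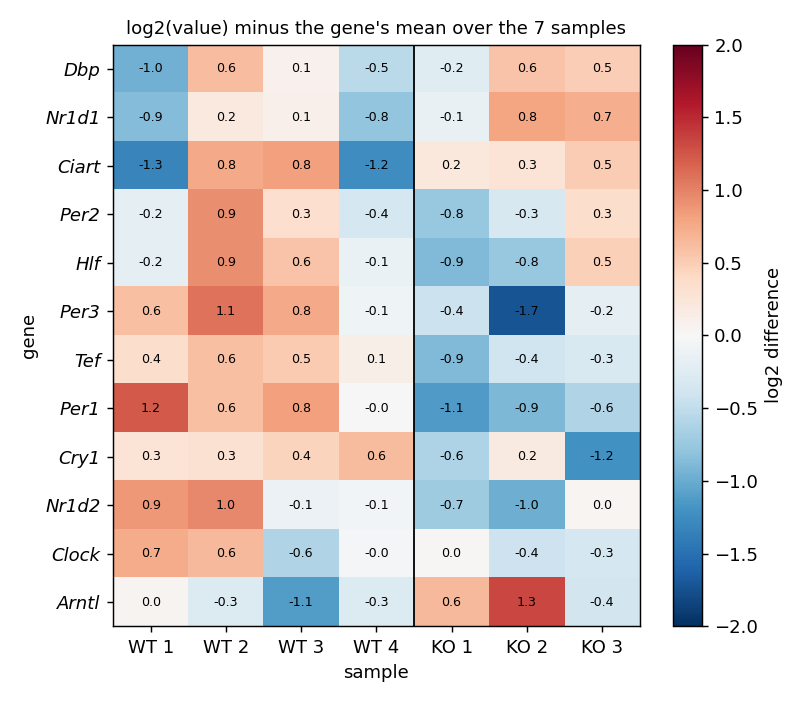
Heat map of log2(value) minus the gene's mean over all 7 samples for the 10 clock genes and for Tef and Hlf, with samples in columns and a line between WT and Ngfr KO. WT 1 and WT 4 are blue and WT 2 and WT 3 red in Ciart, Dbp, Nr1d1, Per2 and Hlf, in places only faintly. Per1, Per3 and Tef are blue in all 3 Ngfr KO samples.

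Exon length moved with these changes. Over all genes tested by limma, the median log2 change was 0.25 for genes with 2 to 4 kb of exon and -0.22 for genes over 8 kb. By edgeR it was 0.17 for 2 to 4 kb, 0.01 for 4 to 6 kb and -0.28 for over 8 kb. The Spearman correlation of change with exon length was -0.26 by limma and weaker by edgeR, at -0.09. The changes of Ciart, Per1, Per2 and Cry1 below are those of edgeR, as limma did not test these genes. Dbp, Nr1d1 and Ciart, with 2.26 to 3.08 kb, had positive changes, and Per3 and Clock, with 9.61 and 13.7 kb, negative ones, whereas Arntl, with 7.52 kb, and Cry1, with 3.34 kb, went against this order. Per1, Per2 and Nr1d2, with 5.41 to 5.86 kb, had negative changes too, although the median log2 change of genes with 4 to 6 kb was 0.03 by limma. In an analysis added after the data were seen, each sample's trend with exon length was removed. The limma log2 change was then -0.68 for Per3 (adjusted p = 0.0332), -0.73 for Nr1d2 (adjusted p = 0.0425) and 0.63 for Arntl (adjusted p = 0.0477), and that of Clock shrank to -0.09 (adjusted p = 0.766), that of Nr1d1 to 0.26 (adjusted p = 0.317) and that of Dbp to 0.12 (adjusted p = 0.740). The edgeR log2 change of Per1 was -1.47 (adjusted p = 0.0486), and Per3 was no longer called by edgeR (-1.02, adjusted p = 0.0912). With that trend removed edgeR did not call Arntl (1.30, adjusted p = 0.0520) or Nr1d2 (-0.87, adjusted p = 0.102) either.

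The rest of the pathway was described from a list of 32 other clock genes, of which limma tested 24 and called 1 higher and 7 lower (background 34.2% in either direction, 18.3% higher and 15.8% lower). edgeR tested all 32 and called the same 8 genes (background 15.2%, of which 6.55% lower). The median log2 change was -0.09 by limma and -0.12 by edgeR. The one gene called higher was Btrc, an F-box protein that marks PER proteins for degradation, at 1.80 to 2.33 for WT and 2.82 to 5.03 for Ngfr KO (limma log2 change 0.63, adjusted p = 0.0169). Gsk3b, a kinase that acts on several clock proteins, fell by 0.55 on the log2 scale (limma adjusted p = 0.0121).

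Noct (nocturnin), a gene known for its rhythmic expression, had the largest fall of the list on limma's log2(value + 1) scale. Its mean ± SD was 14.6 ± 3.3 for WT (n = 4) and 6.37 ± 1.17 for Ngfr KO (n = 3), a limma log2 change of -1.07 (SE 0.20, adjusted p = 0.00239). Sfpq, an RNA-binding protein found with PER complexes, fell by 0.90 (limma adjusted p = 0.00285). Ncor1, the corepressor recruited by REV-ERB proteins, fell by 0.79 (limma adjusted p = 0.0122). Timeless, Tef and Sirt1, a deacetylase, fell by 0.65, 0.63 and 0.61, with limma adjusted p from 0.00730 to 0.00975. Timeless and Sirt1 passed limma's filter through their WT values alone, with highest Ngfr KO values of 0.900 and 0.897. edgeR, which did not use that filter, also called Sirt1 (-1.07, adjusted p = 0.0189). By edgeR, without the pseudocount, Timeless (-1.15, adjusted p = 0.0189) and Noct (-1.13, adjusted p = 0.0120) had about the same change. With the length trend removed limma called 7 of the 24, with Gsk3b at an adjusted p of 0.0525. By edgeR with that trend removed, Tef (adjusted p = 0.0765), Ncor1 (0.0977) and Gsk3b (0.138) were no longer called.

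Among the paralogs of the core genes on this list, none but Tef was called. Bhlhe40 (DEC1), a repressor that competes at E-boxes, had normalised values of 9.06 to 19.2 for WT and 14.7 to 27.1 for Ngfr KO (limma log2 change 0.55, adjusted p = 0.119). Its relative Bhlhe41 was at 0.00381 to 0.329 for WT and 0.0136 to 0.124 for Ngfr KO. Rora, an activator of Arntl, had a limma log2 change of 0.01 (adjusted p = 0.984), and its paralog Rorb, below limma's filter at 15 to 53 reads, was at 0.165 to 0.222 for WT and 0.0544 to 0.104 for Ngfr KO. Those groups did not overlap, and the edgeR log2 change of Rorb was -1.27 (adjusted p = 0.228), although limma without the filter gave an adjusted p = 0.0392. Nfil3, a repressor at D-boxes, had a limma log2 change of -0.14 (adjusted p = 0.554). Hlf had a limma log2 change of -0.32 (adjusted p = 0.236). The edgeR log2 changes were 1.16 for Arntl2 (adjusted p = 0.192), 0.03 for Npas2 (0.986) and -0.07 for Cry2 (0.906).

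**Figure D4:**
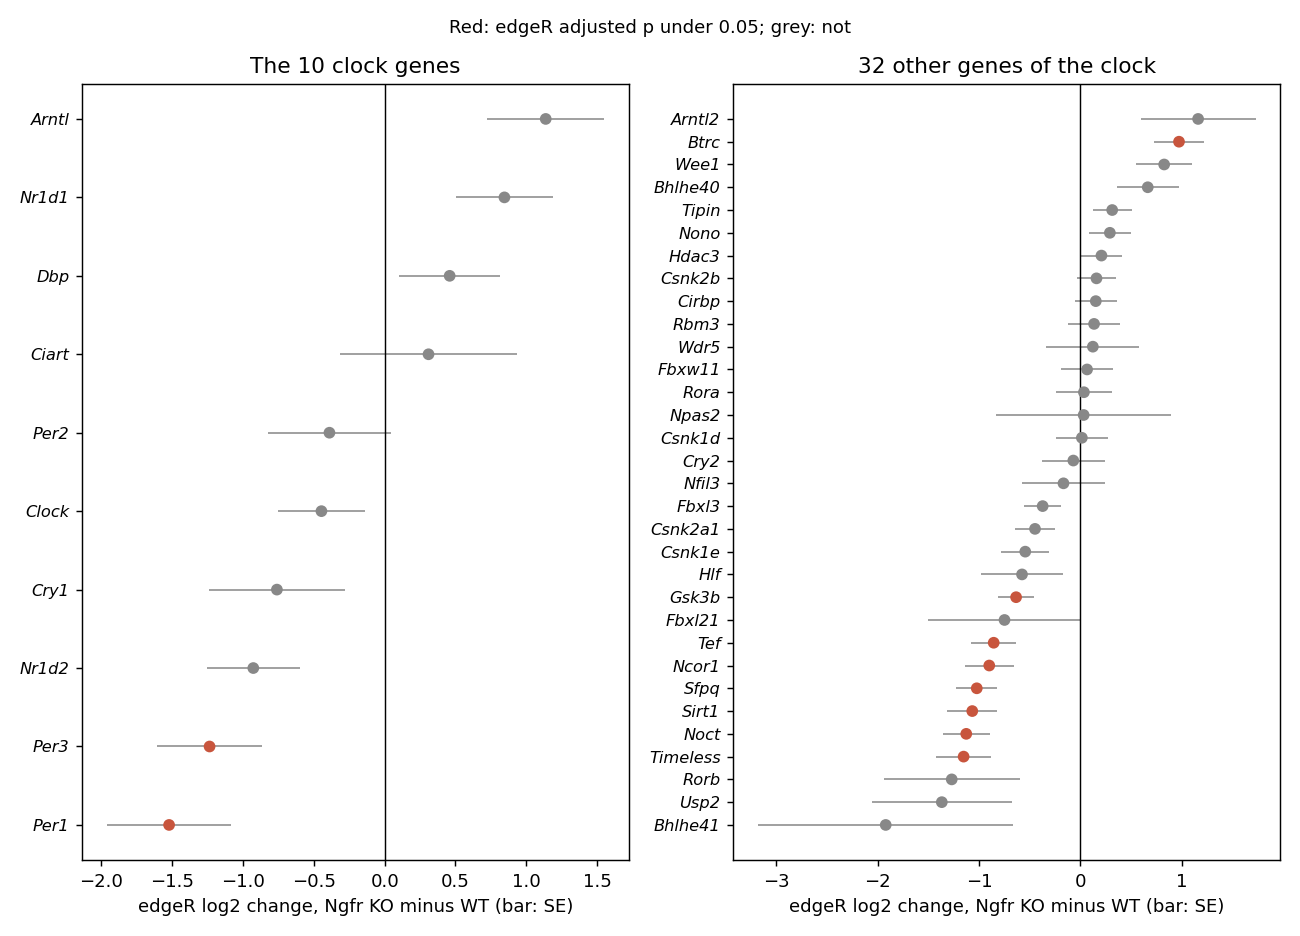
edgeR log2 change of Ngfr KO minus WT with its standard error as a bar, for the 10 clock genes (left) and 32 other clock genes (right), in red where the adjusted p is under 0.05. Per1 and Per3 are red on the left, and on the right Btrc is the only red point above 0 among 8.

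Because Per1 responds to glucocorticoids and to immediate early signals, both gene groups were read beside it. Of 20 listed glucocorticoid targets limma tested 15 and called 8 lower and 1 higher, with a median log2 change of -0.59 (background 15.8% lower and 18.3% higher, median 0.02). Another 6 of the 15 did not pass in limma, with changes in both directions. Their limma log2 changes were 0.14 for Tsc22d3 (adjusted p = 0.625), 0.38 for Cdkn1a (0.450) and 1.07 for Lcn2 (0.180). For Sgk1 the change was -0.05 (0.901), for Errfi1 -0.22 (0.520) and for Klf9 -0.38 (0.120). Among the called targets the falls were largest for Tgm2, a transglutaminase (1.44), the metallothionein Mt1 (1.41) and the sulfotransferase Sult1a1 (1.34). Their limma adjusted p were 0.000590, 0.0100 and 0.0184. Sult1a1 was not called by edgeR (adjusted p = 0.118). Of 24 immediate early genes limma tested 21 and called 10 lower and 1 higher, against the same background, with a median log2 change of -0.62. Another 10 of the 21 did not pass in limma. Among these the limma log2 change was -0.88 for Egr1 (adjusted p = 0.0528), -0.53 for Atf3 (0.313) and -0.44 for Fos (0.352). It was -0.38 for Ier3 (0.435), -0.26 for Junb (0.509), -0.07 for Jun (0.863) and -0.07 for Dusp1 (0.864). For Ier2 it was 0.52 (0.277). Klf4 fell by 2.37, Fosb by 1.55 and Btg2 by 1.30, with limma adjusted p of 0.000116, 0.000970 and 0.00496. These were the largest on limma's log2(value + 1) scale. By edgeR lower-valued genes changed as much or more, among them Nr4a2 (-2.88, adjusted p = 0.0126), Egr3 (-2.32, adjusted p = 0.0128) and the glucocorticoid target Pdk4 (-2.12, adjusted p = 0.0310), which were chosen after their values were seen. Per1 was lower in the same samples in which many genes of both groups were lower; their part in the Per1 difference was not tested. The summed values of both groups overlapped between genotypes. For WT and Ngfr KO they were 280.0 to 402 and 277 to 394 for the glucocorticoid targets. For the immediate early genes they were 529.8 to 1138 and 394 to 760.0. Much of the glucocorticoid sum came from Nfkbia, the 1 target called higher, at 77.4 to 164 for WT and 186 to 271 for Ngfr KO. The overlap of that sum therefore does not describe the other targets.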

How the data were processed

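RNA of 7 sorted FDC samples was sequenced from SMART-Seq v4 cDNA and Nextera XT libraries, per the labels' protocols. The authors deposited a single table of signal, named TMM, in which each gene's reads had been multiplied by 1 factor per sample. The submitters' processing notes name bcl2fastq 2.20.0.422 and the build mm10; the aligner, counter and annotation are not given in the sources used here. Division by 1 step per sample turned 100% of its values into whole reads (tolerance 0.05 reads). Amplified reads are not independent molecules.

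Genotypes were compared with limma 3.58.1 (R 4.3.3, eBayes with trend) on log2(value + 1), for genes that reached 1 in 3 or more samples, with Benjamini-Hochberg adjustment over all genes and calls under 0.05. A gene could reach this filter through its WT values alone, as Timeless, Sirt1, Nr4a2 and Egr3 did. The pseudocount is worth 230 to 295 reads and understates changes of low genes. For genes below the filter, edgeR 4.0.16 (quasi-likelihood, filterByExpr) on the recovered reads is given, with the SE taken from its F statistic; DESeq2 1.42.0 was an alternative. Scripts were tested on simulated data. Labels do not say that the pools were independent beyond the design text's word; p-values measure the spread between these samples.

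Coordinates and exon lengths come from GENCODE M21 (GRCm38), which matched 21118 of 21176 identifiers. The clock genes, the other lists and the tests were chosen with earlier results of these data known. Named genes were the 10 clock genes, Ngfr, Thra, and the called genes and core paralogs of the clock list. The 3 called genes with the largest limma change in the glucocorticoid and in the immediate early list were named too. Sphk2, Rorb, Nr4a2, Egr3, Pdk4 and Nfkbia were added after their values were seen. So were the 6 glucocorticoid targets that limma tested and did not call. The uncalled immediate early genes Egr1, Atf3, Fos, Ier3, Junb, Jun, Dusp1 and Ier2 were added in the same way. A listed gene is not reported here. Alternatives were other pseudocounts, filters, scalings and weights, a replicate block, thinned reads, each sample left out, and removal of the length trend, added after seeing the data.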

Additional observations from a re-analysis of the deposited data

Results flagged for a closer look

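Among 55 results, the sample of the 4 WT replicates farthest from its nearest neighbour stood apart in 2, where chance alone gives about 2.75; none of the 10 clock genes was among them. In the summed value of the glucocorticoid targets, WT replicate 3 was at 402 and the others at 280.0 to 289, a gap of 0.930 of the whole range. In the summed value of the reticular stroma markers, WT replicate 4 was at 226 and the others at 92.5 to 103, a gap of 0.924 of the range.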

How the results depend on the processing

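The count of called genes (2844) was 535 with the stricter filter (359 higher, 176 lower), 4881 with array weights and 1614 to 3006 when 1 sample was left out, lowest without Ngfr KO replicate 2 and also moved by more than 1.5 times without WT replicate 1 (1870) and Ngfr KO replicate 1 (1803). Of the clock genes, 2 were called as reported, 0 of 10 by limma without a filter (4 at an unadjusted p under 0.05), 4 with array weights, 4 by DESeq2 and 0 to 3 when 1 sample was left out: 1 without WT replicate 1, 1 without WT replicate 2 and 0 without Ngfr KO replicate 2. The stricter filter left no clock gene to test. Other clock genes called (8) were 1 of 3 tested with the stricter filter, 14 with array weights and 7 to 9 when 1 sample was left out. Glucocorticoid targets called (9) were 5 without a filter, 4 with the stricter filter and 7 to 10 when 1 sample was left out, and immediate early genes (11) were 4 with the stricter filter and 9 to 12. Dbp reversed with array weights (-0.23); the other 9 clock genes kept their sign in every alternative run. Against the limma result Per3 passed the threshold in 17 of 19 alternatives and Nr1d2 in 13 of 19, and against the edgeR result Per1 passed in 4 of 12; in the 7 edgeR fits without 1 sample, Per1, Per3 and Nr1d2 were each called in 1. The edgeR log2 change of Ngfr was -1.69 with the length trend removed (adjusted p = 0.0430), -1.57 by DESeq2 (adjusted p = 0.0135) and -1.84 to -1.30 when 1 sample was left out. The cause of these shifts was not tested, beyond the fewer genes or samples that a setting leaves.

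Samples with the same replicate number deviated together in 1 of 3 pairs: the correlations of their deviations from the group means were 0.298, -0.0593 and -0.0108 for replicates 1, 2 and 3, so the numbers as a whole were not taken to pair the samples. With the replicate number as a block, limma called 2717 genes, 3 clock genes, 8 other clock genes, 10 glucocorticoid targets and 12 immediate early genes. WT replicate 4 has no Ngfr KO sample of its number, so with the block it added nothing to the genotype change. The limma log2 change of Per3, for example, was -1.01 both under the block and without WT replicate 4. Under the block Arntl was called (0.53, limma adjusted p = 0.0430), Per1 was not (-1.68, edgeR adjusted p = 0.0655), and Ngfr was at -1.25 (edgeR adjusted p = 0.199). edgeR with the block called 0 of 10 clock genes (5 at an unadjusted p under 0.05). Without the block, edgeR called 0 to 2 of them when 1 sample was left out. Per1, Per2, Cry1 and Ciart rested on 28 to 264 reads per library; how far depth rather than the spread between samples limits their tests was not tested.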
